A study of Mus musculus with 18 samples.

Results

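The uncoupling proteins and a set of genes commonly read as marks of browning were followed in 3 metabolic tissues of mice on a high-salt diet. The 7 genes were Ucp1, Ucp2, Ucp3, Cidea, Elovl3, Prdm16 and Dio2. They were taken by symbol from the 21899 genes listed, and each symbol matched 1 row. The animals were wild-type male C57BL/6 mice, 18 weeks old. Control mice (CON) received chow and tap water. High-salt mice (HSD) received a diet with 8% NaCl and 0.9% saline as drinking water for 12 weeks. Liver, epididymal white adipose tissue (eWAT) and quadriceps muscle were profiled by RNA-seq, with 3 CON and 3 HSD libraries for each tissue and 18 libraries in all. By the animal numbers in the library names, the libraries came from 4 CON and 4 HSD mice, and 4 of these 8 mice gave all 3 tissues. Whole adipose tissue and whole muscle were used, so fewer cells of a type and less RNA per cell cannot be told apart.

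Uncoupling proteins are carriers of the inner mitochondrial membrane. Ucp1 lets protons back into the matrix and so releases the energy of respiration as heat, and it is the defining gene of brown and beige adipocytes. Ucp2 is found in many tissues and in immune cells, whereas Ucp3 is best known from skeletal muscle and brown fat, where it follows fatty acid supply. The other genes mark the thermogenic fat cell at different levels. Prdm16 is a transcription regulator that drives the brown and beige programme, Cidea is a lipid droplet protein, Elovl3 elongates very long chain fatty acids, and Dio2 converts thyroxine to the active thyroid hormone inside the cell.

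Expression is given as FPKM, the fragments assigned to a gene per kilobase of its exons, scaled to the total fragments of the library. The libraries held between 7628071 and 16637489 fragments. Adipocyte, muscle and hepatocyte markers marked the tissues as labelled. Markers of another tissue stood out in 2 libraries and were not limited to them. In liver CON replicate 2, the summed FPKM of 15 skeletal muscle markers was 5281, against 3.01 to 8.04 in the other liver libraries, and 14 of the 15 were highest in it. In eWAT HSD replicate 2, the sum of 13 epididymal epithelium markers was 18654, against 1.10 to 13.6 in the other eWAT libraries, and its white adipocyte sum of 6874 was the lowest of the tissue (15696 to 22487 in the others). Male germ cell markers, 11 genes, summed to 599 FPKM in eWAT HSD replicate 1, where 7 of them were highest of the tissue. Their sum was 295 FPKM in HSD replicate 2, 44.8 FPKM in HSD replicate 3 and 5.52 to 54.4 FPKM in CON eWAT. Of 13 hepatocyte markers, 12 lay below CON in every HSD eWAT library, as given below. Mitochondrially encoded genes took 60.8% of the fragments in liver CON replicate 1 and 15.4% to 44.4% in the other liver libraries.

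**Figure D1:**
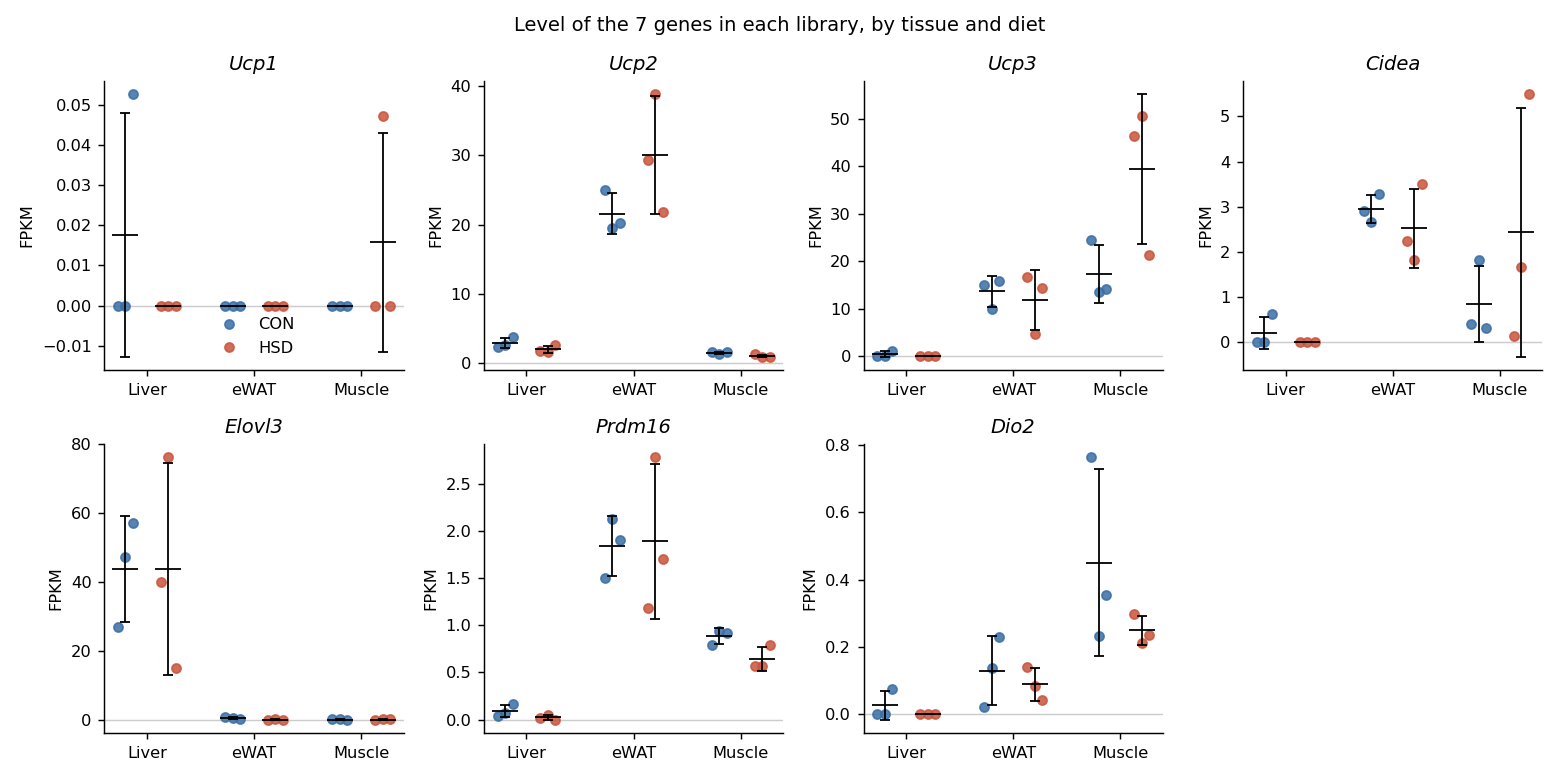
Each panel shows 1 gene, with FPKM on a linear axis of its own, in the 3 CON (blue) and 3 HSD (red) libraries of liver, eWAT and muscle. Points are libraries, horizontal bars the group means and whiskers 1 SD. Ucp2, Ucp3, Cidea and Prdm16 had their highest levels in eWAT or muscle, Elovl3 in liver, and Ucp1 lay at 0 in 16 of 18 libraries.

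Ucp1 was not detected in eWAT under either diet. No fragment was assigned to it in any of the 6 eWAT libraries, which held 86858902 fragments together. A count of 0 allows up to 3 fragments, which is 0.0211 FPKM over these libraries pooled. Over the 16 libraries at 0 taken singly, the same limit lay between 0.110 and 0.240 FPKM. A single fragment fell in liver CON replicate 2 (0.0526 FPKM, 95% exact Poisson interval 0.00133 to 0.293) and another in muscle HSD replicate 2 (0.0471 FPKM, 0.00119 to 0.262). These intervals and limits cover counting error only. The Ucp1 gene lies on chromosome 8 of mm10 at 83290352-83298452 on the plus strand, with 6 exons and 1636 exonic bases, and no other annotated gene overlaps it. The brown adipocyte genes listed beside it were not uniformly low in eWAT. Of these 14 genes, 4 had a mean under 0.5 FPKM over the 6 eWAT libraries and 1 of them, Zic1, a transcription factor of classical brown fat, was at 0 in all 6. Lhx8 had 3 fragments in CON replicate 2, 2 in HSD replicate 1 and 0 in the other 4. Others had clear levels, with means of 34.6 FPKM for Slc36a2, 6.78 for Kcnk3, 5.82 for Cox8b and 1.35 FPKM for P2rx5. These 6 examples were chosen after their values were seen.

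Ucp2 and Ucp3 are neighbours on chromosome 7, both on the plus strand. Ucp3 spans 100472990-100486432 and Ucp2 spans 100493337-100502020 in mm10, with 6904 bases between them. An antisense transcript, Gm10603, overlaps the start of Ucp3, and the end of Dnajb13, on the other strand, overlaps the end of Ucp2. Whether the counting used strand was not given in the sources used here. The promoters of the 3 uncoupling protein genes are shown because the genes differ so widely in tissue level. Each window holds 250 bases before and 50 after the start of the gene (RefSeq, GRCm38.p6), for Ucp1 at chr8:83290098-83290397, for Ucp2 at chr7:100493108-100493407 and for Ucp3 at chr7:100472741-100473040, all on the plus strand. Capitals mark matches, on either strand, to the nuclear receptor half-site AGGTCA or the GC box GGGCGG, whose reverse complement reads CCGCCC.
Ucp1: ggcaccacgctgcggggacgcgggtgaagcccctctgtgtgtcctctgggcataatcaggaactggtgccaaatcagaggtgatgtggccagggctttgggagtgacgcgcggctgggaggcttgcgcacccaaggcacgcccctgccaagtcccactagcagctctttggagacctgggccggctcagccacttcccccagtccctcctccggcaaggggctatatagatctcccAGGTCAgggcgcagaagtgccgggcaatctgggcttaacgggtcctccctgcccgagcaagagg
Ucp2: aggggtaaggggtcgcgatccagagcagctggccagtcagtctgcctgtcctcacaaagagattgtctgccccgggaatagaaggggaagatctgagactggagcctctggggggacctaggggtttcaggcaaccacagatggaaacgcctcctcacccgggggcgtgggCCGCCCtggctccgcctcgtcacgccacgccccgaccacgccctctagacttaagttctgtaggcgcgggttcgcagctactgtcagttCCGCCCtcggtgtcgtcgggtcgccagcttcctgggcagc
Ucp3: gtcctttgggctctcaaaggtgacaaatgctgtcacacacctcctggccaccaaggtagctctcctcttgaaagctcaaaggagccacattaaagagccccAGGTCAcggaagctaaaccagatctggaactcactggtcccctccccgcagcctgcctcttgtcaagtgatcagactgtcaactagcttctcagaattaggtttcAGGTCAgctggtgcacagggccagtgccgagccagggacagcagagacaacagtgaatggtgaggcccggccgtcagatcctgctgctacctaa
The half-site was found 1 time in the Ucp1 window and 2 times in that of Ucp3. It occurred in 16.3% of the 32851 promoters of the same length. The Ucp2 window held 2 GC boxes, a motif present in 35.7% of promoters. None of the 3 windows held the exact TATA box string TATAAA (13.6% of promoters), CCAAT (37.4%) or the cyclic AMP response element TGACGTCA (1.79%). Variants of these strings were not searched, and the Ucp1 window reads tatata shortly before its half-site. It is thus not shown to lack a TATA box. The window of Ucp2 had 21 CpG dinucleotides, that of Ucp1 had 15 and that of Ucp3 had 5.

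In muscle, Ucp3 had the largest fitted log2 fold change between the diets among the tested members, and it did not pass the test. Ucp3 stood at 24.4, 13.4 and 14.1 FPKM in CON replicates 1 to 3 and at 46.3, 50.5 and 21.3 FPKM in HSD replicates 1 to 3. Both of the highest HSD libraries lay above every CON library, but HSD replicate 3 lay below CON replicate 1, so the groups overlapped. The mean was 17.3 ± 6.14 FPKM (SD, n = 3) in CON and 39.4 ± 15.8 FPKM (SD, n = 3) in HSD, a ratio of 2.28. Its log2 fold change was 1.12 (SE 0.32, 95% interval 0.40 to 1.85), with a limma adjusted p of 0.136. A gene was called where the adjusted p was under 0.05 and the log2 fold change was at least 1 in size, with p adjusted over all genes tested in the tissue. With the replicate number as a block, Ucp3 was called (SE 0.21, limma adjusted p = 0.0395), and that fit called 54 genes, 0.498% of those tested. No label pairs CON and HSD libraries by that number, so the block rests on an assumption. Leaving out 1 library at a time gave log2 fold changes of 0.90 to 1.51 and adjusted p of 0.0705 to 0.352.

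Ucp2 was low in muscle and lay on the other side. Ucp2 had 1.57, 1.34 and 1.64 FPKM in the CON muscle libraries and 1.26, 0.948 and 0.957 FPKM in the HSD libraries. All 3 HSD libraries lay below all 3 CON libraries. Groups that do not overlap were found for 22.3% of the genes tested in muscle. On the log2 scale the fold change was -0.38 (SE 0.14, 95% interval -0.70 to -0.06), with a limma adjusted p of 0.235. The macrophage markers, from cells known to express Ucp2, were lower in the same libraries. Their sum over 13 genes was 43.3 to 47.7 FPKM in HSD and 59.0 to 93.3 FPKM in CON muscle, 5 of the 13 lay below CON in every HSD library, and Marco and Clec4f were at 0 in all 6. The part of these cells in the Ucp2 level was not tested. Within a library, the ratio of Ucp3 to Ucp2 was 15.6, 9.98 and 8.60 in CON muscle and 36.9, 53.3 and 22.2 in HSD muscle, so the 2 diets did not overlap in this ratio, which was looked at after the values of both genes were seen.

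Cidea varied widely between muscle libraries of the same diet. It had 0.406, 1.82 and 0.321 FPKM in CON muscle and 0.135, 1.66 and 5.49 FPKM in HSD muscle. The highest library, HSD replicate 3, rested on 76 fragments and the lowest, HSD replicate 1, on 2. The ratio of the group means was 2.86 and rested on HSD replicate 3. HSD against CON gave a log2 fold change of 0.75 (SE 0.69, 95% interval -0.80 to 2.30; limma adjusted p = 0.625), and without HSD replicate 3 it was -0.03. Adipoq, the adipocyte hormone adiponectin, marks fat left in the muscle samples, and it had 6.94, 16.4 and 7.25 FPKM in CON and 3.75, 17.6 and 13.7 FPKM in HSD muscle. Cidea was low where Adipoq was low, yet per 1000 FPKM of Adipoq it stood at 35.9 to 111 FPKM in 5 of the muscle libraries and 401 FPKM in HSD replicate 3, against 1.15 to 2.63 FPKM in eWAT. The sum of 7 white adipocyte markers was 140 to 246 FPKM in CON and 131 to 310 FPKM in HSD muscle, and none of the 7 was at 0 in all of these libraries. The part of adipocytes in the Cidea level of muscle was not tested.

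**Figure D2:**
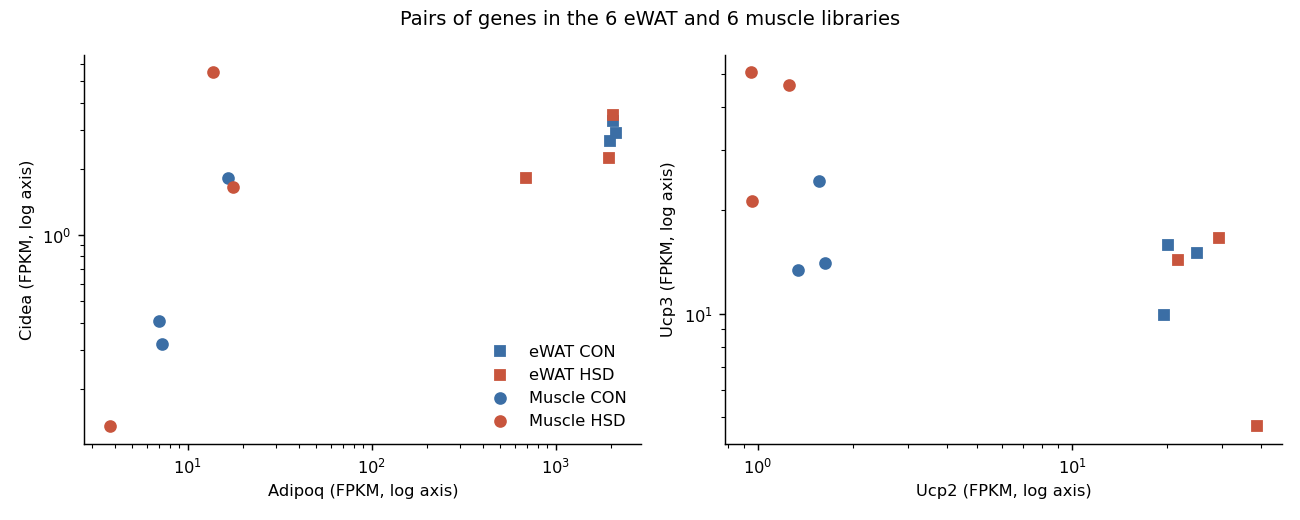
On the left, Cidea is plotted against Adipoq and, on the right, Ucp3 against Ucp2, in FPKM on log axes, for the 6 eWAT (squares) and 6 muscle (circles) libraries of CON (blue) and HSD (red) mice. Muscle libraries reached 5.49 FPKM of Cidea at Adipoq levels of 3.75 to 17.6 FPKM, and the ratio of Ucp3 to Ucp2 was 22.2 to 53.3 in HSD and 8.60 to 15.6 in CON muscle.

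Prdm16 had 0.785, 0.942 and 0.921 FPKM in CON muscle and 0.572, 0.570 and 0.787 FPKM in HSD muscle. The groups overlapped, since HSD replicate 3 was just above CON replicate 1. Prdm16 had a log2 fold change of -0.28 (SE 0.15, 95% interval -0.61 to 0.05; limma adjusted p = 0.388). Dio2 was below the filter, a mean of 0.5 FPKM over the libraries of the fit, in every tissue. Its highest level was in muscle, with 0.766, 0.232 and 0.354 FPKM in CON and 0.297, 0.212 and 0.236 FPKM in HSD, and the groups overlapped (exact two-sided permutation test of the log2 values, p = 0.3, n = 3 and 3, where 0.1 is the smallest p possible). Elovl3 had at most 2 fragments in any muscle library. In all, 4 of the 7 genes were tested in muscle and 0 were called by limma, against 0.323% of all genes tested. At an unadjusted p under 0.05 there were 2 (Ucp2 and Ucp3), against 16.3% of all genes tested in muscle, and limma's voom on the fragments recovered from the FPKM also called 0.

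In eWAT, none of the 4 genes that passed the filter was called. Ucp2 was at its highest level here, with 24.9, 19.6 and 20.2 FPKM in CON and 29.4, 38.8 and 21.8 FPKM in HSD. HSD replicate 3 lay inside the CON range, and the highest value belonged to HSD replicate 2, the library with epididymal RNA. The log2 fold change of Ucp2 was 0.44 (SE 0.23, 95% interval -0.12 to 0.99; limma adjusted p = 0.373). Macrophage markers summed to 596 to 885 FPKM in CON and 261 to 561 FPKM in HSD eWAT, so that the sum was lower in HSD where the mean of Ucp2 was higher. Of these 13 markers, 5 lay below CON in every HSD library and none was at 0 in all 6. Groups that do not overlap were found for 28.6% of the genes tested in eWAT. The part of macrophages in the Ucp2 level was not tested.

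Ucp3 and Cidea were lowest in eWAT HSD replicate 2, where Ucp2 and Prdm16 were highest. Ucp3 had 15.02, 9.91 and 15.9 FPKM in CON and 16.6, 4.69 and 14.3 FPKM in HSD eWAT. Cidea had 2.91, 2.66 and 3.29 FPKM in CON and 2.23, 1.82 and 3.50 FPKM in HSD eWAT. Apart from HSD replicate 2, the Ucp3 values of the 2 diets overlapped, with HSD replicate 1 above every CON library and HSD replicate 3 within the CON range. HSD replicate 2 also had the lowest sum of white adipocyte markers. The part of the cell mixture in these values was not tested. Ucp3 had a log2 fold change of -0.34 (SE 0.48, 95% interval -1.52 to 0.85; limma adjusted p = 0.707), which was 0.20 without HSD replicate 2. Cidea had one of -0.23 (SE 0.22, 95% interval -0.78 to 0.32; limma adjusted p = 0.580). Prdm16 had 1.499, 2.12 and 1.902 FPKM in CON and 1.18, 2.78 and 1.70 FPKM in HSD eWAT, so that HSD held both its lowest and its highest value. The highest was that of HSD replicate 2, the library with epididymal RNA. Prdm16 had a log2 fold change of -0.02 (SE 0.28, 95% interval -0.70 to 0.66; limma adjusted p = 0.972), which was -0.28 without HSD replicate 2. The share of all genes called in eWAT was 0%, with 2298 genes at an unadjusted p under 0.05, none of them a member, and voom called 0 genes as well. Without HSD replicate 2, 160 genes were called and 0 of the members.

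Elovl3 was the only member whose eWAT libraries did not overlap between the diets, at a trace level. It had 0.726, 0.468 and 0.152 FPKM in CON eWAT, from 23, 14 and 5 fragments. In HSD eWAT it had 0 FPKM in replicates 1 and 3 and 0.0823 FPKM, from 2 fragments, in replicate 2. Groups that do not overlap were found for 28.6% of the genes tested in eWAT. Elovl3 did not pass the filter in this tissue and so had no place in the fit, and an exact two-sided permutation test of its log2 values gave p = 0.1 (n = 3 and 3), the smallest that this design allows. Hepatocyte markers moved with it. Alb, the albumin gene, had 108, 167 and 53.9 FPKM in CON eWAT and 7.85, 3.30 and 5.87 FPKM in HSD eWAT, and 12 of 13 hepatocyte markers lay below CON in every HSD library. Apoa1 had a mean of 36.0 FPKM in CON and 1.09 FPKM in HSD, and Apoa2 had 48.4 and 2.31 FPKM. The remaining marker, Cyp2e1, overlapped between the diets, with 1112 ± 253 FPKM in CON and 1787 ± 997 FPKM in HSD (SD, n = 3 each), and it made up most of the sum of the 13, which was 1123 to 1637 FPKM in CON and 674 to 2578 FPKM in HSD eWAT. None of the 13 was at 0 in all 6 libraries. Elovl3 is a gene of high level in liver, and the part of liver RNA in these reads was not tested. Dio2 had 0.0214, 0.136 and 0.227 FPKM in CON eWAT and 0.139, 0.0839 and 0.0394 FPKM in HSD eWAT, with 2 to 22 fragments and overlapping groups.

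In liver, Ucp2 and Elovl3 were the only members that passed the filter, and neither was called. Elovl3 had 26.9, 57.0 and 47.2 FPKM in CON replicates 1 to 3 and 40.0, 76.2 and 15.05 FPKM in HSD replicates 1 to 3. The HSD libraries spanned more than the whole CON range, and the group means were nearly equal at 43.72 ± 15.3 and 43.74 ± 30.7 FPKM (SD, n = 3 each). That near equality depends on scaling to totals that include mitochondrially encoded genes. Their share was 60.8%, 25.7% and 37.8% in CON replicates 1 to 3 and 16.3%, 15.4% and 44.4% in HSD replicates 1 to 3. In each diet the library with the highest share had the lowest Elovl3. Elovl3 had a log2 fold change of -0.21 (SE 0.62, 95% interval -1.66 to 1.23; limma adjusted p = 0.923), and without HSD replicate 3, its lowest library, it was 0.40. Ucp2 had 2.31, 3.73 and 2.64 FPKM in CON liver and 1.77, 1.59 and 2.59 FPKM in HSD liver. Replicates 1 and 2 of HSD lay below all CON libraries and replicate 3 within them. The log2 fold change of Ucp2 was -0.45 (SE 0.25, 95% interval -1.04 to 0.15; limma adjusted p = 0.764). Over 20 alternative settings it ran from -0.80 to -0.28, under the fold limit, with limma adjusted p from 0.000348 to 0.9997. Leaving out 1 library at a time gave limma adjusted p of 0.356 to 0.9997. The Ucp2 values are scaled to the same totals as those of Elovl3, mitochondrially encoded genes included. Macrophage markers summed to 70.2 to 79.9 FPKM in CON and 29.2 to 48.8 FPKM in HSD liver, with 5 of 13 below CON in every HSD library and none at 0 in all 6, and their part in the Ucp2 level was not tested. The share of all genes called in liver was 0%, with 592 genes at an unadjusted p under 0.05, none of them a member, and 0 genes called by voom. Groups that do not overlap were found for 12.1% of the genes tested in liver and for neither of the 2 members.

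The liver reads of Ucp3, Cidea and Dio2 came almost all from CON replicate 2, the library with muscle RNA, and Prdm16 was highest in it. In it Ucp3 had 1.07 FPKM from 39 fragments, Cidea had 0.617 FPKM from 8, Dio2 had 0.0739 FPKM from 5 and Prdm16 had 0.166 FPKM from 18. In the other 5 liver libraries Cidea and Dio2 were at 0, Ucp3 had 1 fragment in CON replicate 1 and 0 in the rest, and Prdm16 had 0 to 6 fragments. Adipocyte markers were raised in that library too, with a sum of 36.0 FPKM against 3.78 to 5.31 FPKM in the other liver libraries and 6 of 7 markers highest in it, while the leptin gene Lep was at 0 in all 6. The part of these tissues in the reads was not tested.

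**Figure D3:**
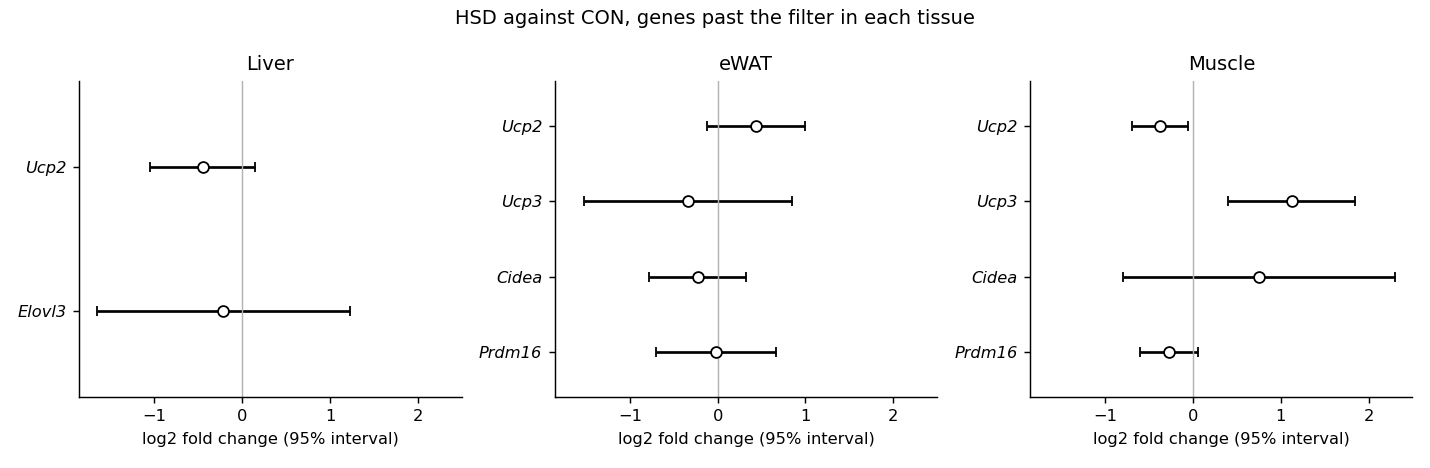
The log2 fold change of HSD against CON is plotted for the members that passed the filter in each tissue, with 95% intervals from the limma fit. Open circles are genes that were not called, which here are all of them; the intervals of Ucp3 (0.40 to 1.85) and Ucp2 (-0.70 to -0.06) in muscle do not reach 0 before adjustment.

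The wider thermogenic programme was read from 7 lists with 73 genes: relatives of the uncoupling proteins, paralogs of the other members, transcription regulators, brown and beige adipocyte genes, beta-adrenergic and lipolytic signalling, and the creatine and calcium cycles that burn energy without Ucp1. None of these genes was called by limma in any tissue, and voom called 0 of them in each. In eWAT 60 of the 73 were tested, with 5 higher and 5 lower in HSD at an unadjusted p under 0.05 and a median log2 fold change of 0.09, against 0.08 over all genes tested. In muscle 50 were tested, with 2 higher and 8 lower and a median of -0.11 against -0.06. In liver 44 were tested, with 4 higher and 2 lower and a median of -0.11 against 0.13. Over all genes tested, 16.7% in eWAT, 16.3% in muscle and 5.74% in liver had an unadjusted p under 0.05.

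**Figure D4:**
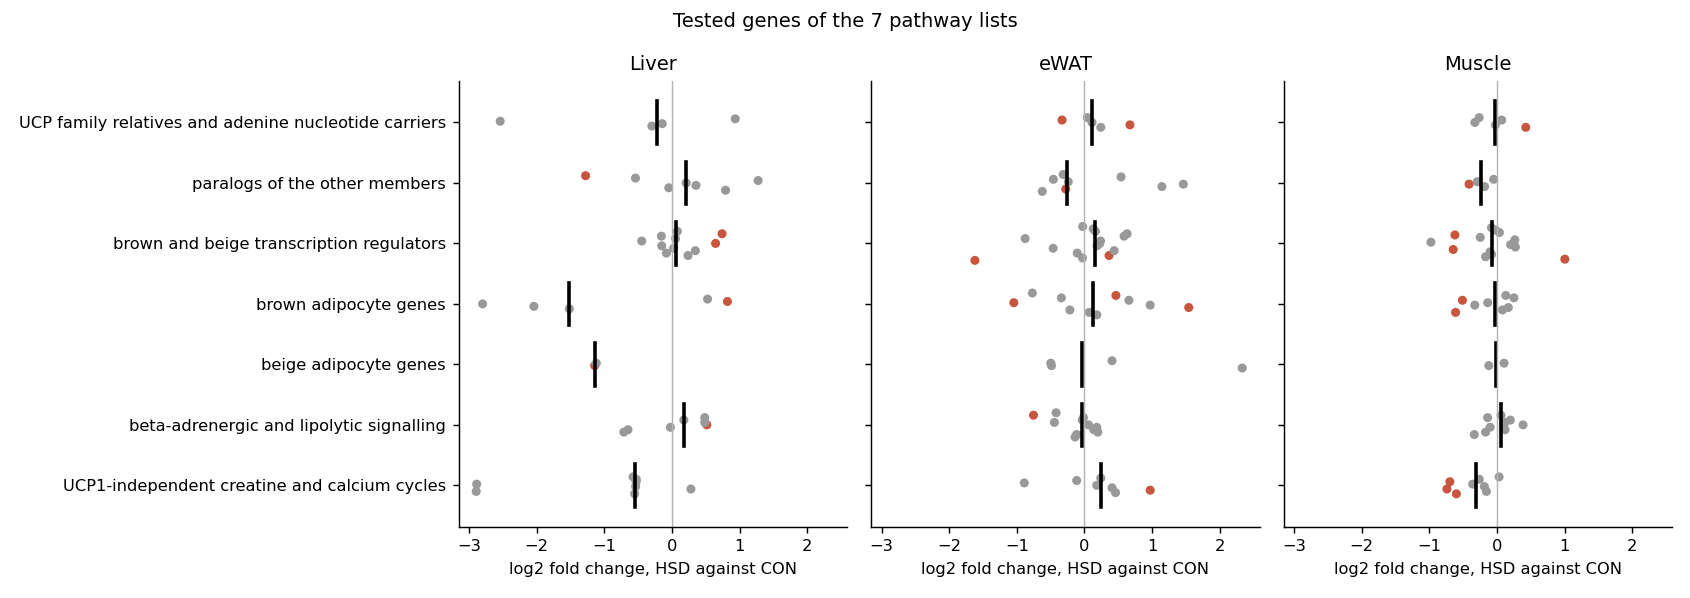
Each point is a tested gene of 1 of the 7 lists, with its log2 fold change of HSD against CON on the horizontal axis, in liver, eWAT and muscle. Red points had an unadjusted p under 0.05, grey points did not, and black bars are list medians; the points of liver that lie below -2 are Slc25a4, Atp2a1, Ckmt2, Cox8b and Fabp3.

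Among brown adipocyte genes in eWAT, the 2 tested genes with the largest fold changes had opposite signs. Kcnk3, a potassium channel of brown adipocytes, had 7.91, 9.36 and 10.6 FPKM in CON and 3.74, 3.97 and 5.06 FPKM in HSD, with no overlap (log2 fold change -1.04, SE 0.16, limma adjusted p = 0.114). Fabp3, a fatty acid binding protein of muscle and brown fat, had 0.909, 0.160 and 0.730 FPKM in CON and 3.38, 4.94 and 0.836 FPKM in HSD (1.54, adjusted p = 0.281). Among the regulators, Cebpb, which acts early in adipocyte differentiation, had 14.9, 20.6 and 12.1 FPKM in CON and 8.67, 3.73 and 3.15 FPKM in HSD (-1.62, adjusted p = 0.160). Pparg, the master regulator of adipocytes, had a log2 fold change of -0.88 that rested on 24.2 FPKM in HSD replicate 2, against 88.0 to 123 FPKM in the other libraries. In the signalling list, Prkaca, a catalytic subunit of protein kinase A, was at -0.75 (adjusted p = 0.171) and Lipe, the hormone-sensitive lipase, at -0.44 (adjusted p = 0.572). The uncoupling protein relatives Slc25a27, or Ucp4, and Slc25a4, an adenine nucleotide carrier, were at 0.67 (adjusted p = 0.224) and -0.33 (adjusted p = 0.275).

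Some of the remaining large values in eWAT belonged to a single library. Cited1 was at 52.3 FPKM in HSD replicate 2 and at 0.0343 to 0.376 FPKM in the other eWAT libraries. Elovl4 was at 12.7 FPKM and Elovl2 at 8.14 FPKM in that library, against at most 0.0993 and 1.27 FPKM in the others. Hoxc9, a positional gene of subcutaneous beige fat, had 3.76 to 4.40 FPKM in CON and 1.24 to 4.56 FPKM in HSD (-0.50, adjusted p = 0.528). For the cycles, Atp2a1, a calcium pump of the sarcoplasmic reticulum, was at 0.97 (adjusted p = 0.244) with levels of 0.121 to 1.16 FPKM. In eWAT, 6 of 15 skeletal muscle markers lay above CON in every HSD library, where 28.6% of all genes tested did not overlap between the diets. The sums of these 15 markers were 14.3 to 24.3 FPKM in CON and 38.5 to 58.5 FPKM in HSD, with Tnnc2 at 0 in all 6. Their part in the Atp2a1 level was not tested. Gamt, the last enzyme of creatine synthesis, had 25.6 to 34.7 FPKM in CON and 9.74 to 37.5 FPKM in HSD (-0.89, adjusted p = 0.409).

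In muscle, the brown adipocyte genes P2rx5 and Acot11 were both lower in every HSD library than in any CON library. They were 2 of the 8 brown adipocyte genes tested there, and groups that do not overlap were found for 22.3% of all genes tested in muscle. P2rx5, a purinergic receptor, had 5.07, 5.29 and 5.41 FPKM in CON and 3.64, 3.31 and 3.67 FPKM in HSD (log2 fold change -0.51, SE 0.11, limma adjusted p = 0.0756). Acot11, a thioesterase also known from brown fat, had 0.997 to 1.30 FPKM in CON and 0.509 to 0.705 FPKM in HSD (-0.61, adjusted p = 0.0936). Cebpb, which lay lower in HSD eWAT, lay higher in HSD muscle, at 4.01, 3.59 and 6.72 FPKM in CON and 14.04, 7.58 and 8.63 FPKM in HSD (1.00, adjusted p = 0.106). Ppara, a receptor that drives fatty acid oxidation genes, was at -0.98 (adjusted p = 0.380). Atp2a2, the calcium pump of slow muscle fibres, had 37.4, 60.2 and 43.3 FPKM in CON and 28.9, 22.1 and 31.9 FPKM in HSD (-0.74, adjusted p = 0.110), and Gamt was at -0.70 (adjusted p = 0.181). Of the 15 skeletal muscle markers, 4 lay below CON in every HSD muscle library and 0 lay above, beside the same share of 22.3% over all genes tested. Myh1 and Myh2, myosin heavy chains of fast fibres, had means of 742 and 284 FPKM in CON and 372 and 138 FPKM in HSD, myoglobin (Mb) had 948 and 566 FPKM, and Casq1 had 917 and 769 FPKM. Other markers of the list overlapped between the diets with a higher mean in HSD. Among them were Myh4, another myosin heavy chain, at 8632 FPKM in CON and 9535 FPKM in HSD, and Ckm at 4411 and 4589 FPKM. The sum of the 15 was 67103 to 74928 FPKM in CON and 74425 to 84392 FPKM in HSD, and none was at 0 in all 6. The part of the fibre makeup in P2rx5, Acot11 and Atp2a2 was not tested. Smaller values in muscle were those of Slc25a14 at 0.42, Slc25a30 at -0.33, Elovl1 at -0.41, Elovl5 at -0.29, Lipe at 0.38, Hoxc9 at -0.12 and Tbx1 at 0.10.

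In liver, 5 of these genes had their level almost only in CON replicate 2, the library with muscle RNA. Slc25a4 was at 261 FPKM, Atp2a1 at 214 FPKM, Ckmt2 at 193 FPKM, Cox8b at 79.8 FPKM and Fabp3 at 269 FPKM in that library, and none exceeded 2.42 FPKM in any other. Tbx1, which muscle also expresses, was highest there as well, at 4.45 FPKM. Elovl6, which elongates palmitate in fatty acid synthesis, had 7.85, 7.69 and 16.8 FPKM in CON and 2.40, 3.67 and 6.40 FPKM in HSD liver (log2 fold change -1.28, SE 0.43, limma adjusted p = 0.764). Elovl2 was at 1.27 (adjusted p = 0.764), and Ppara and Tfam, a factor of mitochondrial DNA, were at 0.65 and 0.74 with no overlap between the diets. Epsti1 was at -1.14, Slc25a5 at 0.94 and Adrb3 at -0.65.

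The members were also compared between the tissues of CON mice. Here 5 of the 7 genes were tested in a joint fit of all 18 libraries. The median of all genes differed between tissues in these FPKM, by a log2 fold change of 1.33 for eWAT against liver, 0.91 for eWAT against muscle and 0.48 for muscle against liver, and member values are to be read relative to it. All 5 tested members were called between eWAT and liver, as were 67.4% of all genes. Between eWAT and muscle 2 were called, against 53.3% of all genes, and between muscle and liver 3, against 48.4%.

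**Figure D5:**
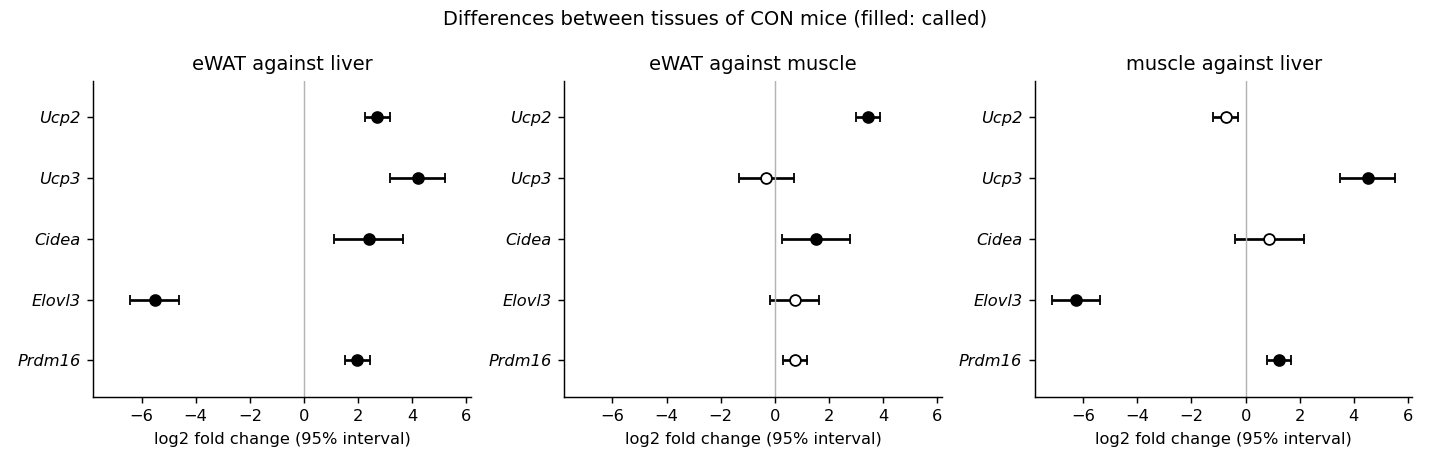
The log2 fold change between tissues of CON mice is plotted for the 5 tested members with 95% intervals, for eWAT against liver, eWAT against muscle and muscle against liver. Filled circles were called; Elovl3 lay far to the left in both comparisons with liver (-5.52 and -6.26), and Ucp2 far to the right in eWAT against muscle (3.45).

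Ucp2 was highest in eWAT, at 21.6 ± 2.94 FPKM (SD, n = 3) in CON, followed by liver at 2.89 ± 0.743 and muscle at 1.51 ± 0.155 FPKM. All 6 eWAT libraries lay above all others. It exceeded both, with a log2 fold change of 2.72 for eWAT against liver and 3.45 for eWAT against muscle (SE 0.21 each, limma adjusted p = 1.44e-08 and 3.37e-09). Liver and muscle were not separated by the rule, at -0.73 for muscle against liver (adjusted p = 0.00682, under the fold limit). This call turned with the scaling, since Ucp2 was lower in muscle than in liver by the rule with median-ratio scaling (-1.32, limma adjusted p = 4.46e-05), after quantile normalization (-1.16, adjusted p = 0.000192) and without mitochondrial genes (-1.28, adjusted p = 0.000526). The Ucp2 level depends on the length used, since its annotated exons cover 6989 bases and its longest principal transcript 3988, and with the latter the CON eWAT level was 37.8 FPKM.

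Ucp3 had about the same level in eWAT and muscle of CON mice and almost none in liver. Its mean was 17.3 ± 6.14 FPKM in muscle, 13.6 ± 3.23 in eWAT and 0.371 ± 0.606 FPKM in liver (SD, n = 3 each), and the liver value rested on CON replicate 2. Muscle and eWAT did not differ beyond their spread (log2 fold change of eWAT against muscle -0.31, 95% interval -1.33 to 0.71, limma adjusted p = 0.579). Both exceeded liver, by 4.51 in muscle and 4.20 in eWAT (SE 0.48 each, adjusted p = 6.71e-07 and 8.12e-07). These 2 values depend on the pseudocount of 0.5, since liver lay near 0. The closely placed Ucp2 and Ucp3 thus had different orders, with the ratio of Ucp3 to Ucp2 at 0.507 to 0.786 in CON eWAT and 8.60 to 15.6 in CON muscle.

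Elovl3 was highest in liver. It stood at 43.7 ± 15.3 FPKM in CON liver, 0.449 ± 0.288 in eWAT and 0.0540 ± 0.0470 FPKM in muscle (SD, n = 3 each). Its log2 fold change was -5.52 for eWAT and -6.26 for muscle against liver (SE 0.42 each, limma adjusted p = 9.15e-09 and 4.27e-09), and eWAT and muscle did not differ by the rule (0.73, 95% interval -0.16 to 1.62, adjusted p = 0.129), though eWAT was called higher with a pseudocount of 0.1 (1.73, adjusted p = 0.0104). Prdm16 was highest in eWAT at 1.84 ± 0.317 FPKM, then muscle at 0.883 ± 0.0850 and liver at 0.0929 ± 0.0649 FPKM, and all 6 libraries of each tissue lay apart from those of the next. It was called against liver in eWAT (1.98) and muscle (1.23), with SE 0.21 and limma adjusted p of 3.99e-07 and 9.96e-05, and not between eWAT and muscle (0.75, adjusted p = 0.00493). The calls of Prdm16 depended on the setting. Against liver, that of eWAT was lost after quantile normalization (0.75) and that of muscle with a pseudocount of 1 (0.79), both under the fold limit. Between eWAT and muscle, the value was -0.27 after quantile normalization, while voom called it (1.05, adjusted p = 0.0060).

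Cidea was at 2.95 ± 0.315 FPKM in CON eWAT, 0.848 ± 0.841 in muscle and 0.206 ± 0.356 FPKM in liver (SD, n = 3 each). The log2 fold change was 2.40 for eWAT against liver and 1.52 for eWAT against muscle (SE 0.60 each, limma adjusted p = 0.00166 and 0.0321), and muscle against liver was 0.88 (adjusted p = 0.210). The difference between eWAT and muscle did not hold without any 1 of eWAT CON replicates 1, 2 and 3 or muscle CON replicates 1 and 3 (adjusted p = 0.0644, 0.0558, 0.0758, 0.101 and 0.115), nor with median-ratio scaling (0.76, adjusted p = 0.324), quantile normalization (0.46, adjusted p = 0.545), a pseudocount of 0.1 (2.04, adjusted p = 0.0623) or mitochondrial genes left out (1.45, adjusted p = 0.0583). The difference between eWAT and liver was lost after quantile normalization (1.35, adjusted p = 0.0608). Dio2, not tested, was highest in muscle at 0.451 ± 0.280 FPKM in CON, with 0.128 ± 0.103 in eWAT and 0.0246 ± 0.0427 FPKM in liver.

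Whether the diet difference itself differed between tissues was tested in the same joint fit. None of the 5 tested members was called, against 0.758% of all genes for eWAT against liver, 0.0612% for muscle against liver and 0% for eWAT against muscle. At an unadjusted p under 0.05 there were 1, 1 and 2 members, against 13.7%, 7.95% and 8.0% of all genes, and voom called 0 in each of the 3. The Ucp3 difference in muscle exceeded that in eWAT by 1.46 (SE 0.68, limma adjusted p = 0.622) and that in liver by 1.71 (SE 0.68, adjusted p = 0.562). For Ucp2, eWAT exceeded muscle by 0.81 (SE 0.30, adjusted p = 0.509) and liver by 0.89 (SE 0.30, adjusted p = 0.222). With the 15 libraries that the study lists, Ucp2 was called in both (1.02, adjusted p = 0.0433, and 1.09, adjusted p = 0.00903) and Elovl3 for eWAT against liver (-1.39, adjusted p = 0.0455), where 1.29% and 18.7% of all genes were called. Those libraries leave out liver CON replicate 2, liver HSD replicate 3 and eWAT HSD replicate 3, and they keep eWAT HSD replicate 2.

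The genes most like each member were named by Pearson correlation of log2 values over the 18 libraries, as a description. The libraries share 3 tissues, so most of each value is the tissue order, and 13067 genes were compared. Smarcb1, Hltf and Nkd1 were closest to Ucp2 (r = 0.985, 0.985 and 0.984), and Pdzrn3, Septin11 and Tmem100 to Ucp3 (0.985, 0.984 and 0.978). Elovl3 was closest to Cyp2c67, Hsd3b5 and Mup1 (0.997, 0.996 and 0.996), all of them genes that male mouse liver expresses strongly. Siva1, Susd5 and Lipo3 were closest to Cidea (0.90, 0.892 and 0.891), and Atp6v0a1 and Tcta were among the genes closest to Prdm16 (0.986 and 0.985).

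After each tissue was centred on its own mean, other genes came first. Adipoq was then second for Cidea (r = 0.766), between Psat1 (0.822) and Il10rb (0.754). Elovl3 kept Cyp2c67 (0.90) and Hsd3b5 (0.894), with Manbal (0.896) between them. Ucp2 was closest to Armcx4, Ppp1r12b and Acot11 (0.886, 0.880 and 0.869), Ucp3 to Ccn3, Pmepa1 and Lvrn (0.887, 0.865 and 0.848) and Prdm16 to Mid1ip1, Ly6e and Kcnh2 (0.876, 0.857 and 0.848).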

How the data were processed

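RNA of liver, eWAT and quadriceps muscle was sequenced as paired-end reads from rRNA-depleted, stranded total RNA libraries. The authors trimmed the reads, aligned them to mm10 with HISAT2 and deposited 1 table of FPKM per gene. The study's methods name cuffdiff for the FPKM, and the submitters' processing notes name HTSeq 0.9.1 and also mm9. All 18 value columns matched a sample by name. Where FPKM were multiplied by the GENCODE M21 exon length and a fitted library total, all 18822 genes above 0 gave whole fragments (within 0.01 fragments or a relative 2e-05), 18317 at the annotated length and 505 at another. Those totals are the depths given.

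The values are not counts, so limma 3.58.1 (R 4.3.3) was fitted to log2(FPKM + 0.5) of genes with a mean of at least 0.5 FPKM, with an intensity trend and Benjamini-Hochberg adjustment over all genes. Fold changes on that scale understate the change of low genes. Each diet comparison used the 6 libraries of its tissue, and comparisons of tissues used all 18 in 6 groups. In muscle, CON and HSD libraries of the same replicate number had correlations of deviations from group means of 0.383, 0.177 and 0.184. Pairs of different number in muscle ran from -0.347 to 0.180, so the 2 kinds of pair overlapped. The values for the same number had mixed signs in liver (-0.473, 0.396 and -0.213) and eWAT (-0.197, 0.061 and 0.414). A pairing by replicate number was thus not shown in any tissue. The fit was also run on simulated data with the same set spread for every gene and no RNA of other tissues. Only genes of clear level were changed in them, so members of low level were not covered. The members and lists were chosen with earlier results of these data known. The text names all 7 members, the 2 tested genes of largest fold change in each list and tissue, and the 3 genes most correlated with each member whose mean FPKM was at least 0.5; genes of the marker lists, Lhx8 and Zic1 were named after their values were seen. Alternatives were 2 other pseudocounts, 2 other filters, 2 scalings, mitochondrial genes left out, array weights, no trend, voom, each library left out, other sets of libraries and replicate blocks. Numbers were taken from 3 mice per group and tissue, which limits precision. Some genes that the naming rule selects are not reported here.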

Additional observations from a re-analysis of the deposited data

How the results depend on the processing

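Liver and eWAT had 0 called members under all 20 alternatives each, and muscle had 0 under 18 of 19, the exception being 1 (Ucp3) with the replicate block. That block changed no other call, and a replicate block by mouse left 5, 2 and 3 members called between tissues. The count for eWAT against liver was 3 with quantile normalization and 5 or 4 elsewhere. For eWAT against muscle it ran from 1 to 3: it was 1 with either scaling or without mitochondrial genes, 1 to 2 with a library left out, and 3 with voom or by adjusted p alone, where Prdm16 was added, and with a pseudocount of 0.1 Elovl3 was called in place of Cidea; for muscle against liver it ran from 2 to 4. With the 15 libraries of the study, 2 members were called for the diet difference of eWAT against liver and 1 for eWAT against muscle. Where no cause is given, it was not tested.

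Signs of small differences turned. In diet comparisons with a library left out, Elovl3 in liver ran from -0.75 to 0.40, Ucp3 in eWAT from -0.66 to 0.20, Prdm16 in eWAT from -0.28 to 0.21 and Cidea in muscle from -0.035 to 1.58. With the libraries the study lists, Elovl3 in liver was 0.62 and Prdm16 in eWAT 0.013; with array weights Ucp3 in eWAT was 0.22. Prdm16 in eWAT against muscle of CON mice was -0.27 after quantile normalization.

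Differences of diet effects, none of them called in the full set, turned as well. For eWAT against liver with a library left out, Cidea ran from -0.23 to 0.35, Ucp3 from -0.28 to 0.79 and Prdm16 from -0.10 to 0.38. With the 15 libraries Cidea was -0.45 and Ucp3 -0.50. Without the 2 libraries liver CON replicate 2 and eWAT HSD replicate 2, a setting chosen after seeing the data, Cidea was -0.059 and Prdm16 -0.19. Elovl3 was 0.18 after quantile normalization and Prdm16 -0.24 with array weights. For muscle against liver with a library left out, Ucp2 ran from -0.10 to 0.24 and Elovl3 from -0.40 to 0.75. Without the 2 libraries Ucp2 was -0.098 and Elovl3 -0.011, and Elovl3 was -0.26 with array weights and -0.62 with the 15 libraries. Prdm16 was 1.60 with voom, 0.085 after quantile normalization, 0.19 with a pseudocount of 0.1 and 0.037 with median-ratio scaling. For eWAT against muscle Prdm16 was -0.020 after quantile normalization and -0.15 with array weights.

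With 3 libraries a group, the intervals allow differences of up to 1.85 for Ucp3 in muscle and 0.99 for Ucp2 in eWAT on the log2 scale. Dio2 rested on at most 59 fragments a library, and Elovl3 outside liver on at most 23. The array weights did not converge in some liver fits.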
